A study of Homo sapiens with 58 samples.

Results

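The 52 genes described here are the ephrins, the Eph receptors, the semaphorins of classes 3 to 7, the plexins and the neuropilins, taken as every gene of these families that the array's annotation names by symbol. They are 52 of the 19798 genes measured by a probe set naming 1 gene. They comprise 8 ephrins, 13 Eph receptors, 20 semaphorins, 9 plexins and 2 neuropilins, and the receptor EPHB2 is not among them. Each gene was read from its probe set with the highest mean. The samples are 58 human cell lines labelled as breast cancer, all at baseline, untreated and grown as the vendor recommends, with 1 array for each line and no replicate arrays. The labels define no treatment, genotype or subtype, so levels were set against continuous scores of cell identity.

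Several lines have limits as models of breast cancer. MDAMB435S, its derivatives M4A4 and NM2C5, and MT3 have been reported to be of other than breast origin, and the 3 MDAMB435 lines had mean levels of 9.44 to 11.65 over 5 melanocyte markers, against a median of 5.28 over all lines. The 4 lines HS362T, HS579MG, HS605T and HS739T averaged 4.53 to 5.02 over 5 epithelial markers and 12.76 to 12.93 over 8 fibroblast markers, against medians of 11.47 and 4.63 over all lines, and are called the fibroblast-like Hs lines below. EPCAM, a surface protein of epithelial cells, was above the array median in 53 of 58 lines. The labels call every line breast cancer, and whether each line comes from a cancer was not checked here. Lines of a common origin were averaged to 1 unit: 14 lines formed 6 such sets, each named by its lines or their common stem, which leaves 50 units. Values are log2 intensities, array medians ran from 5.37 to 5.58, and 566 probe sets for viruses put the background level, their 95th percentile, at 5.62. Probe sets differ in brightness, so levels are compared between lines for 1 gene and not between genes.

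Ephrins are membrane-bound ligands of the Eph receptor tyrosine kinases, and since both partners sit on cell surfaces, binding needs contact between cells and can send a signal into either of them. Semaphorins, secreted or membrane-bound, act through plexins, and secreted class 3 semaphorins mostly need a neuropilin as the part of the receptor that binds them. Both systems were described as guidance cues for growing axons and are known in epithelia for control of cell adhesion, boundaries, movement and vessel growth.

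Most of these genes varied widely between the lines. Of the 52, 50 were detected, a term used for genes that exceeded the median of the array in 3 units or more. EPHA5 and EPHA6, Eph receptors known mainly from the nervous system, were not detected and reached at most 5.21 in HS578T and 5.91 in CAL120. An SD of 1 or more across units was reached by 37 of these 50 genes, which is 74.0%, beside 34.2% of all 14651 detected genes, and the median SD was 1.53 for the 50 genes and 0.70 for all. The widest were SEMA3E (SD 2.82), SEMA5A (SD 2.63), NRP1 (SD 2.57) and SEMA3D (SD 2.50), and the narrowest was EPHA8 (SD 0.20). Between 30 and 42 of the 52 genes were above the array median in any 1 unit, with a median of 35. In every unit 9 genes were above it, among them EPHB4, SEMA3F, PLXNA1 and PLXND1. EPHA8 was also among the 9, at 5.79 to 6.66, close to the background level. Neither count was made for all genes. Each array reads a whole culture, so fewer cells with a transcript and less transcript per cell cannot be told apart. The spread between units exceeded the spread within sets of common origin for 49 of 50 genes, and for 13201 of all 14651 detected genes. The exception was PLXNC1, with an SD of 1.31 across units and 1.92 within sets. Some genes exceeded it by little, among them SEMA6B (1.99 and 1.98) and EFNB3 (1.51 and 1.44).

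**Figure D1:**
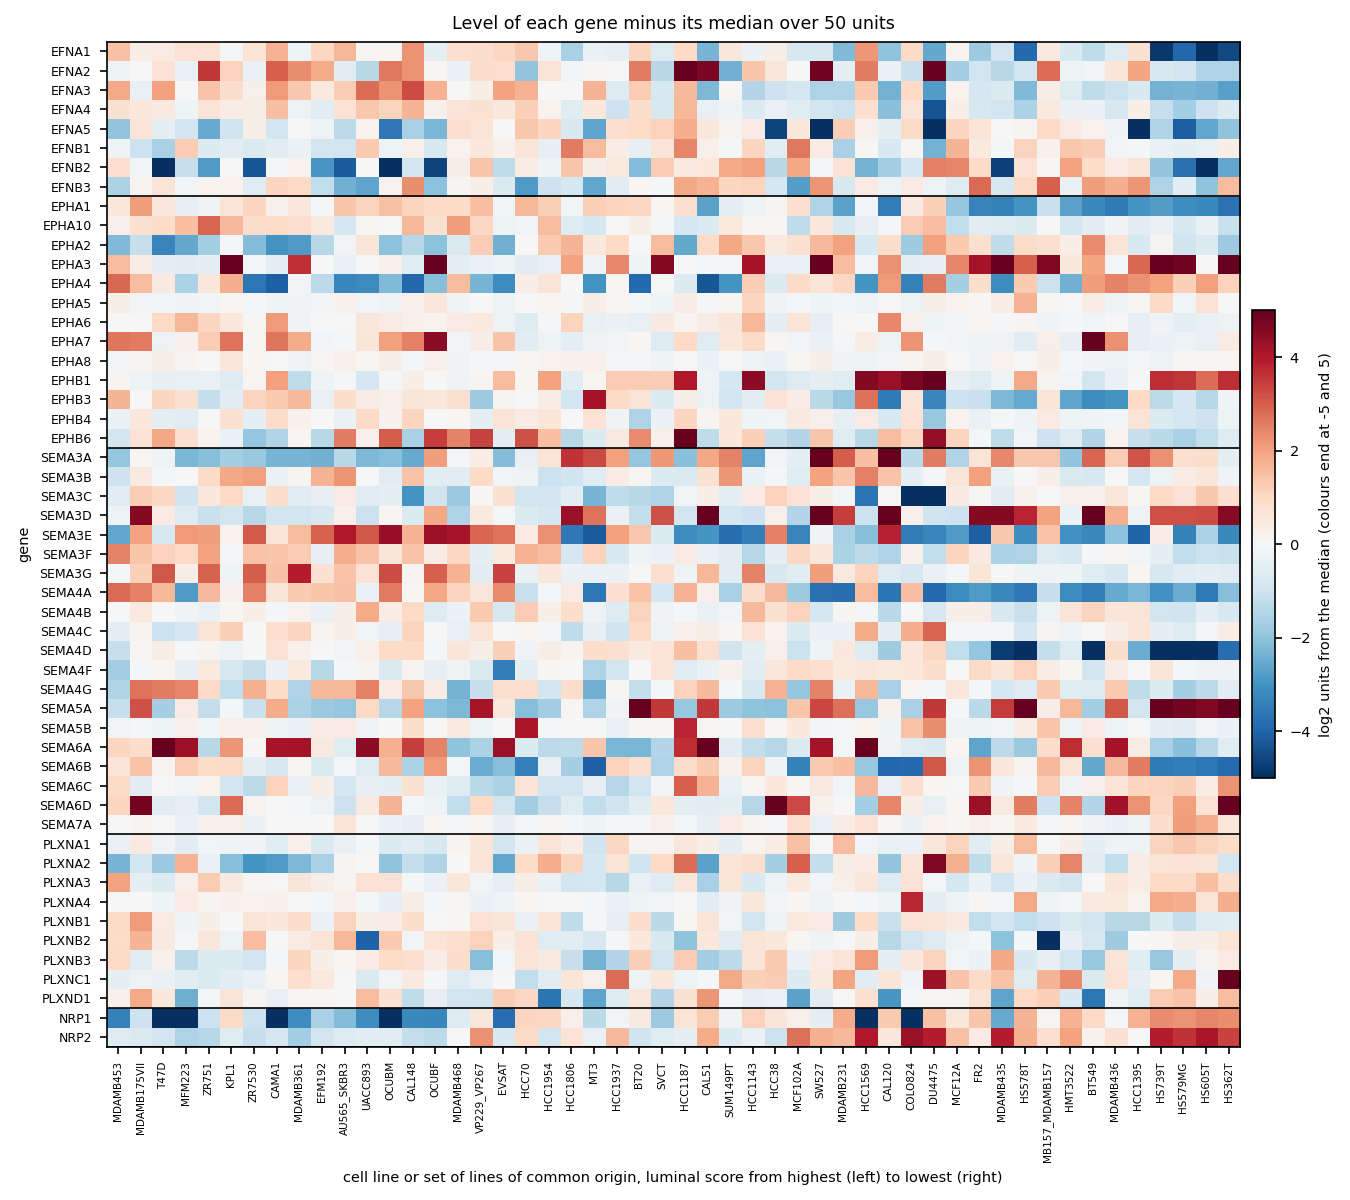
Colours give the level of each of the 52 genes minus its median over the 50 units, in log2 units, with units ordered from the highest luminal score on the left to the lowest on the right and lines separating ephrins, Eph receptors, semaphorins, plexins and neuropilins. NRP2 turns from blue to red toward the right, and EPHA1 and SEMA4A from red to blue.

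To place these levels on the lines' cell identity, each gene was fitted against a luminal score (the mean distance from the median over FOXA1, GATA3, XBP1, SPDEF, AGR2, ERBB3, KRT18 and KRT19), a mesenchymal score (10 genes, among them VIM, ZEB1, FN1 and AXL) and a basal score (KRT5, DSC3, DSG3 and TRIM29). Of 10 genes listed for the basal score 4 were measured, and of 10 listed for the luminal score 8. A slope is the change in log2 level per log2 unit of score. None of the 52 genes belongs to a score. The luminal score ran from -4.12 in HS362T to 2.67 in MDAMB453 and the mesenchymal score from -4.53 in MT3 to 4.21 in HS362T. Across the 50 units these scores ran against each other (Pearson r -0.82, Spearman rho -0.77), so the fits share both their lines and most of their ordering and are given side by side, not as separate support.

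With the luminal score, 13 of the 50 genes were higher and 15 lower at an adjusted p under 0.05, beside 20% of all detected genes higher and 14.8% lower. With the mesenchymal score, 14 were higher and 15 lower, beside 15.4% and 21% of all. With each of the 58 lines as its own unit the mesenchymal counts were 3 higher and 5 lower, beside 3.25% and 3.65% of all, in a fit that then held a term for 2 clusters of that score. The basal fit, unlike the luminal and mesenchymal fits over 50 units, held a term for 2 clusters of its score. In it 0 were higher and 0 lower by limma, beside 0.218% and 0.0614% of all. An unadjusted p under 0.05 was reached by 6 genes, a count not made for all. Without the cluster term 3 were higher with the basal score, beside 2.53% of all. The slopes of these genes were also larger, as were their SDs: the median absolute slope on the luminal score was 0.23 for the 50 genes and 0.08 for all detected genes, and on the mesenchymal score 0.17 and 0.06. The median signed slope on the luminal score was 0.01 for these genes and for all. In all, 34 genes were called on the luminal or the mesenchymal score and 16 on neither. By family, the ephrins gave 3 higher and 0 lower with the luminal score, the Eph receptors 3 and 3, the semaphorins 5 and 6, the plexins 2 and 4 and the neuropilins 0 and 2.

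**Figure D2:**
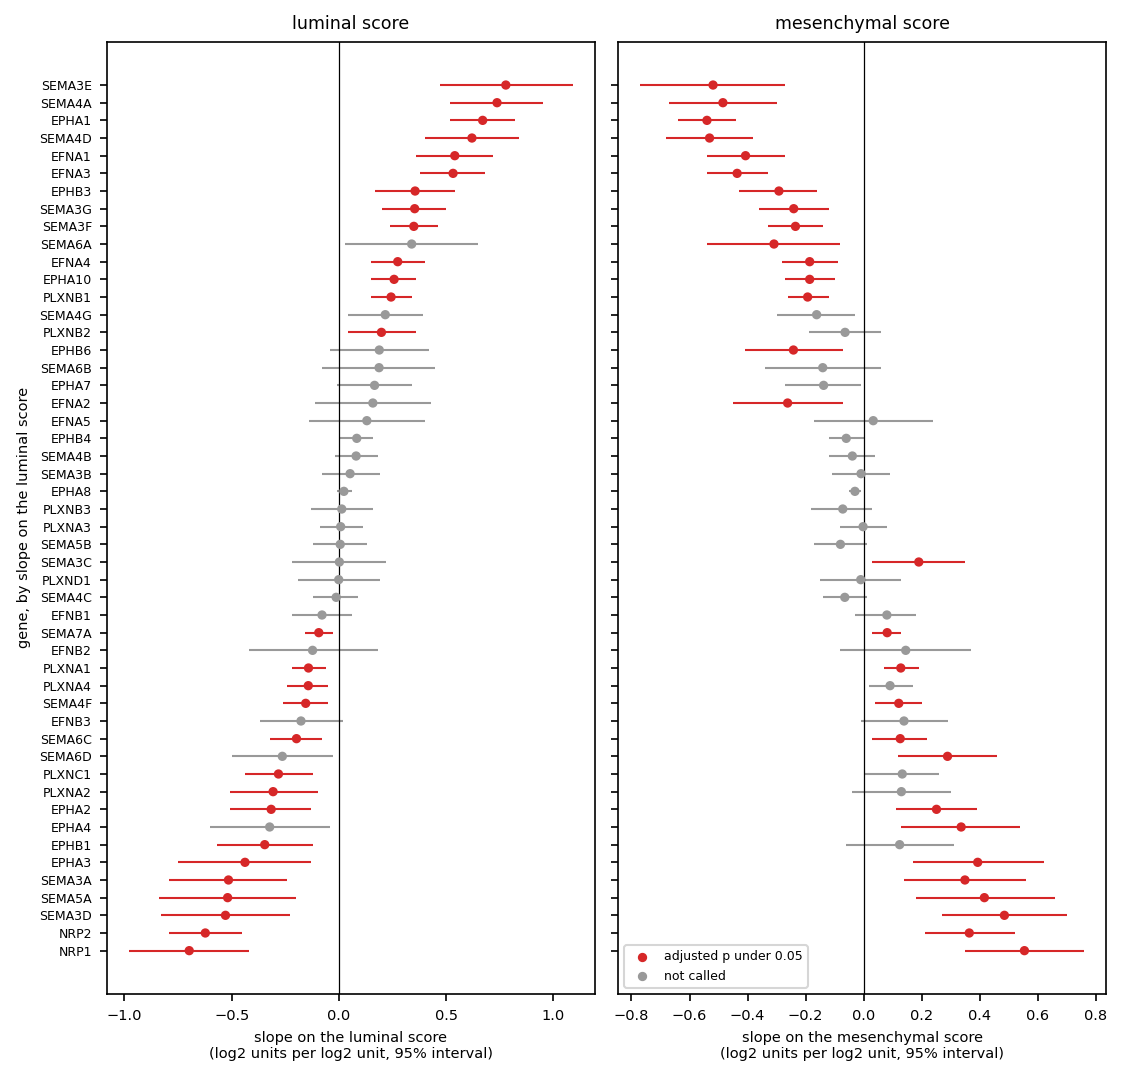
Points give the slope of each of the 50 detected genes on the luminal score (left) and the mesenchymal score (right), in log2 units of level per log2 unit of score, with bars for the 95% interval; red marks an adjusted p under 0.05. SEMA3E, SEMA4A and EPHA1 have the highest luminal slopes, 0.78, 0.74 and 0.67, and NRP1 and NRP2 the lowest, -0.70 and -0.62.

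The windows just before the transcription starts of 5 of these genes are shown because the genes moved most closely together or most strongly with the luminal score: the neighbouring ephrin genes EFNA4, EFNA3 and EFNA1, the receptor EPHA1 with the smallest adjusted p among genes higher with the luminal score, and NRP2 with the smallest among those lower. Each is the 250 bases before the start, 5′ to 3′ on the gene's strand, from RefSeq on build GRCh38.p14. Capitals mark CAGGTG, an E-box whose letters are bound by repressors of the ZEB and SNAI families.
EPHA1 (chr7:143408857-143409106, minus strand): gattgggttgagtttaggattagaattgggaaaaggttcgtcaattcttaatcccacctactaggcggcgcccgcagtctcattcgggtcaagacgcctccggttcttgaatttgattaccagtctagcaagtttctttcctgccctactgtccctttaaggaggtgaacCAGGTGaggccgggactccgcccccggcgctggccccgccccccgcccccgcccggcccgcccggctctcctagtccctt
EFNA4 (chr1:155063490-155063739, plus strand): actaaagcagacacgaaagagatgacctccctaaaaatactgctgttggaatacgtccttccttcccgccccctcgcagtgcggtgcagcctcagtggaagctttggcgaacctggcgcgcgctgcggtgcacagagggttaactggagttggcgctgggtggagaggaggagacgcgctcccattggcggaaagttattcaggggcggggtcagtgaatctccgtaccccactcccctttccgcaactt
EFNA3 (chr1:155078587-155078836, plus strand): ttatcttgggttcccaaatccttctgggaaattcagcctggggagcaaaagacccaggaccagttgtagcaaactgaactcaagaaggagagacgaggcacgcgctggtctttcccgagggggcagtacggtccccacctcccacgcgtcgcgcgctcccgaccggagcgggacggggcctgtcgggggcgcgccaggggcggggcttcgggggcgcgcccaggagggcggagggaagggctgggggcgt
EFNA1 (chr1:155127626-155127875, plus strand): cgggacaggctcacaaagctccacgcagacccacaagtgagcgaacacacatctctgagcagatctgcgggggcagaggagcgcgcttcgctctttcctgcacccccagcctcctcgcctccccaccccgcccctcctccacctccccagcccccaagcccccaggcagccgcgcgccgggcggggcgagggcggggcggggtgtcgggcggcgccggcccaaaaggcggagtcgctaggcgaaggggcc
NRP2 (chr2:205682251-205682500, plus strand): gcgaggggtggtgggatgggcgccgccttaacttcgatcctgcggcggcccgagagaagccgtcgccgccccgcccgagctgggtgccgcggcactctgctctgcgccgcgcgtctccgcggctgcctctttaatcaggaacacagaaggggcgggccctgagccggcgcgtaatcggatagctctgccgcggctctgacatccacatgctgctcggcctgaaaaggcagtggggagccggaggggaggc
Of these 5 windows, the one of EPHA1 holds CAGGTG, at position -80 from the start. RefSeq windows were matched for 46 of the 52 genes, with 72 starts in all; EFNB3, EPHA10, NRP1, SEMA3A, SEMA6A and SEMA6B had none in the table. On both strands, CAGGTG was in 10 of the 72 windows, which is 13.9%, and in 17.5% of the 35116 windows of the table. It was in 4 of 19 windows of genes higher with the luminal score (EPHA1, SEMA3F, SEMA3G and SEMA4A) and in 1 of 15 windows of genes lower with it (SEMA4F). A forkhead motif, TGTTTAC, was in 1.4% of the windows of these genes and 3.0% of all, and a GATA motif, AGATAA, in 8.3% and 9.2%. Each motif was counted on its own whether or not it overlapped another, and a match describes letters only.

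Among the ephrins, the A-class ligands of chromosome 1 were higher in units with a high luminal score. EFNA1, the main ligand of EPHA2, ran from 4.31 in HS605T over a median of 9.28 to 11.54 in CAL148, and the 4 fibroblast-like Hs lines had the values 4.31 to 5.36. Its slope was 0.54 ± 0.09 (SE, n = 50 units) on the luminal score (adjusted p = 5.2e-06) and -0.41 ± 0.07 on the mesenchymal score (adjusted p = 5.75e-06). Without the Hs lines the luminal slope was 0.33 (adjusted p = 0.00367). EFNA3, another GPI-anchored ligand of EphA receptors, ran from 5.40 in DU4475 over 8.20 to 11.46 in CAL148, with a luminal slope of 0.53 ± 0.08 (adjusted p = 2.33e-07) and a mesenchymal slope of -0.44 ± 0.05 (adjusted p = 4.96e-09). EFNA4 had a narrower range, from 4.90 in DU4475 over 9.21 to 10.92 in CAL148, and a luminal slope of 0.27 ± 0.06 (adjusted p = 0.000434). CAL148 was the highest unit for all 3 genes. EFNA4, EFNA3 and EFNA1 lie next to each other on chromosome 1, and their levels moved together across the 50 units, with r 0.83 for EFNA3 and EFNA4, 0.79 for EFNA1 and EFNA3 and 0.72 for EFNA1 and EFNA4. These were the 3 highest correlations among the 1225 pairs of detected genes of these families; copy number was not measured here.

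The other ephrins were not called on the luminal score. EFNA2 was at or under the background level in 28 of 50 units and reached 11.60 in DU4475, 10.77 in HCC1187 and 9.94 in SW527. A second probe set for EFNA2 did not follow this pattern (r -0.14 across units), so the peaks rest on 1 probe set. Its mesenchymal slope was -0.26 ± 0.10 (adjusted p = 0.0276), and -0.22 without the Hs lines (adjusted p = 0.151). EFNA5, a ligand of EPHA3 and EPHA4, was above the array median in 46 units, with a median of 9.75, and was lowest in DU4475 at 3.21.

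The B-class ephrins span the membrane and signal through their own cytoplasmic tail. EFNB2, the ligand of EPHB4 in vessels, varied from 3.29 in HS605T over 9.51 to 12.04 in DU4475. It was above 11 also in MCF12A (11.96), HCC1143 (11.54), HMT3522 (11.52), MCF102A (11.43) and SUM149PT (11.40), and low in OCUBM (4.14) and T47D (4.50). Its slope on the basal score was 0.64 ± 0.18, the smallest adjusted p among these genes for that score but over the threshold (adjusted p = 0.113). With no term for the 2 clusters of the basal score it was 0.41 ± 0.10 (adjusted p = 0.0165), together with calls for EPHA2 and PLXNA2. EFNB1 ran from 4.99 in DU4475 over 7.37 to 9.99 in MCF102A, and EFNB3 from 3.59 in HCC70 over 6.41 to 9.41 in MB157_MDAMB157, without a call on the luminal or mesenchymal score.

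Among the Eph receptors, EPHA1 and EPHA2 ran in opposite directions. EPHA1, an epithelial receptor, was between 3.62 in HS362T and 9.42 in MDAMB175VII, with a median of 7.33, and was above the array median in 35 units. Its luminal slope was 0.67 ± 0.08 (adjusted p = 1.45e-09) and its mesenchymal slope -0.54 ± 0.05 (adjusted p = 1.17e-11), the smallest adjusted p among the 50 genes in either fit. Without the Hs lines these were 0.64 and -0.52. Every unit with EPHA1 below 5 had a negative luminal score. EPHA2, the receptor of EFNA1 and a much studied target in carcinomas, was between 5.18 in T47D and 10.83 in BT549, with a median of 8.48, and DU4475 (10.52), MDAMB231 (10.49) and SUM149PT (10.41) were also high. It was low in CAMA1 (5.50), MDAMB361 (5.65) and MFM223 (5.92). EPHA2 had a luminal slope of -0.32 ± 0.09 (adjusted p = 0.00753), and -0.47 without the Hs lines (adjusted p = 0.000463), in which it stood between 6.66 and 8.60. The mesenchymal slope of EPHA2 was 0.25 ± 0.07 (adjusted p = 0.00437) and turned to -0.04 with a term for 2 clusters of that score.

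**Figure D3:**
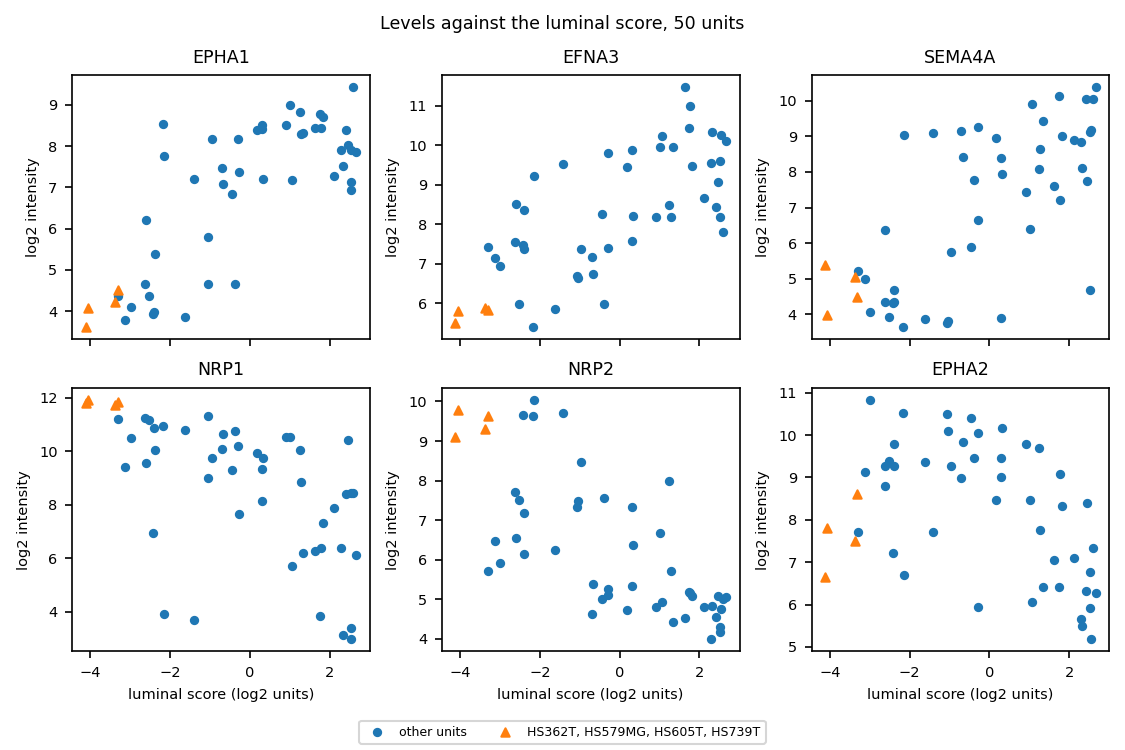
Each point is 1 of 50 units, with the luminal score in log2 units on the x axis and the log2 intensity of EPHA1, EFNA3, SEMA4A, NRP1, NRP2 or EPHA2 on the y axis; triangles are the 4 fibroblast-like Hs lines. NRP1 is between 11.72 and 11.92 in the Hs lines and at 2.96 in T47D.

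Several Eph receptors were at background in most units and high in a few. EPHA3, a receptor of EFNA5, had a median of 2.81 and was at or under the background level in 36 units, but stood at 11.07 in the MDAMB435 set, 9.96 in OCUBF and 9.27 in HS362T. Its second probe set followed the first weakly (r 0.10). Its luminal slope of -0.44 ± 0.15 (adjusted p = 0.0229) was -0.35 without the Hs lines (adjusted p = 0.134), while its mesenchymal slope of 0.39 ± 0.11 (adjusted p = 0.00499) was 0.33 (adjusted p = 0.0427). EPHB1 was at or under background in 37 units and reached 9.25 in DU4475, 8.58 in COLO824 and 8.48 in HCC1569. The Hs lines stood between 6.69 and 7.59, and its luminal slope of -0.35 ± 0.11 (adjusted p = 0.0144) was -0.22 without them (adjusted p = 0.21). EPHA7 was at or under background in 41 units, with 8.40 in BT549 and 7.90 in OCUBF and every other unit at 6.10 or lower. EPHA8 was nearly flat, between 5.79 and 6.66.

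EPHA4, which binds both ephrin classes, ran from 2.94 in CAL51 over 7.21 to 10.07 in MDAMB453. Its mesenchymal slope was 0.34 ± 0.10 (adjusted p = 0.00675) and 0.29 without the Hs lines (adjusted p = 0.0573). EPHB3, known from the intestinal crypt, was highest in MT3 at 11.31, next in HCC1569 at 9.90, and lowest in CAL120 at 3.64. EPHB3 had a luminal slope of 0.35 ± 0.09 (adjusted p = 0.00192) and a mesenchymal slope -0.29 ± 0.07 (adjusted p = 0.000539). EPHA10 and EPHB6 lack kinase activity. EPHA10 was at or under background in 32 units and highest in ZR751 at 8.10 (luminal slope 0.26 ± 0.05, adjusted p = 0.000121), and its probe sets followed each other weakly (lowest r 0.12). EPHB6 reached 10.90 in HCC1187 and 10.02 in DU4475, with a median of 5.61, and its mesenchymal slope of -0.24 ± 0.08 (adjusted p = 0.0189) was -0.21 without the Hs lines (adjusted p = 0.106). EPHB4, the receptor of EFNB2, exceeded the median of its array in each of the 50 units, between 9.35 in DU4475 and 12.31 in CAL148, and was called in none of the 3 fits.

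**Figure D4:**
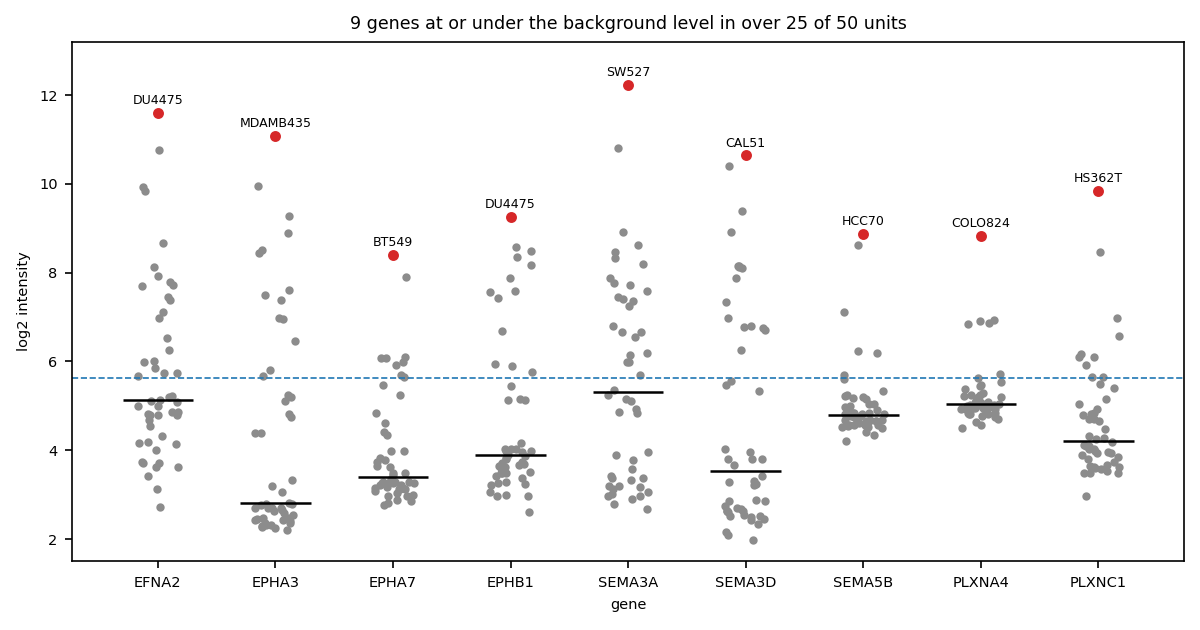
Points give the log2 intensity in each of the 50 units for 9 genes at or under the background level (dashed line, 5.62) in over 25 units; bars mark the median and the red point the highest unit, named above it. The 9 were chosen after their values were seen. PLXNA4 in COLO824 (8.82) stands 1.89 above the next unit.

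The secreted class 3 semaphorins divided into genes higher and genes lower with the luminal score. SEMA3E, which binds PLXND1 without a neuropilin, had the largest SD of the 50 genes (2.82). It ran from 2.05 in MT3 over 6.25 to 10.59 in OCUBM, with OCUBF (10.53) and MDAMB468 (10.36) next. Its luminal slope was 0.78 ± 0.15 (adjusted p = 7.07e-05) and its mesenchymal slope -0.52 ± 0.12 (adjusted p = 0.000698). CAL120, with a luminal score of -1.62, was high at 10.14. SEMA3F, a ligand of NRP2, exceeded the array median in each unit, between 5.99 in the MDAMB435 set and 10.06 in MDAMB453, with a median of 7.59 and slopes of 0.35 ± 0.06 (luminal, adjusted p = 2.74e-06) and -0.24 ± 0.05 (mesenchymal, adjusted p = 5.89e-05). SEMA3G was at or under background in 31 units and reached 8.94 in MDAMB361, with a luminal slope of 0.35 ± 0.07 (adjusted p = 0.000199).

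SEMA3A, the repellent of axons that binds NRP1, and SEMA3D ran the other way. SEMA3A was at or under background in 26 units, had a median of 5.30 and reached 12.22 in SW527 and 10.80 in CAL120. The luminal slope of SEMA3A was -0.51 ± 0.14 (adjusted p = 0.00236) and its mesenchymal slope 0.35 ± 0.11 (adjusted p = 0.00757). The mesenchymal slope turned to -0.05 with 58 lines as units and a term for 2 clusters of that score. Without that term it kept its sign and its call over the 58 lines. SEMA3D was at or under background in 34 units and reached 10.64 in CAL51, 10.40 in SW527 and 9.38 in CAL120, with slopes of -0.53 ± 0.15 (luminal, adjusted p = 0.00463) and 0.48 ± 0.11 (mesenchymal, adjusted p = 0.000308). SEMA3E, SEMA3A and SEMA3D are neighbours on chromosome 7: the r across 50 units was 0.68 for SEMA3A with SEMA3D and -0.23 for SEMA3E with SEMA3A. SEMA3C was above the array median in 48 units, with a median of 10.85, and was lowest in DU4475 (4.33) and COLO824 (4.55). Its mesenchymal slope was 0.19 ± 0.08 (adjusted p = 0.0485), and 0.15 without the Hs lines (adjusted p = 0.215). SEMA3B, which lies on chromosome 3 with SEMA3F, ran from 6.19 to 9.77 and was called in no fit; the r between these 2 genes was -0.08.

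Among the membrane-bound class 4 semaphorins, SEMA4A and SEMA4D were higher with the luminal score and SEMA4F lower. SEMA4A, described in immune cells and epithelia, ran from 3.65 in DU4475 over 7.52 to 10.37 in MDAMB453. Its slopes were 0.74 ± 0.11 (luminal, adjusted p = 3.04e-07) and -0.49 ± 0.09 (mesenchymal, adjusted p = 2.51e-05). It was not uniform at high scores: MFM223, with a score of 2.53, stood at 4.68. SEMA4D, the ligand of PLXNB1, was at 4.25 to 6.92 in the 4 Hs lines and at 4.47 in HS578T, with a median of 10.74 and a maximum of 12.23 in HCC1187. The luminal slope of SEMA4D was 0.62 ± 0.11 (adjusted p = 9.08e-06), and 0.41 without the Hs lines (adjusted p = 0.00336). SEMA4F ran the other way at a small slope (-0.15 ± 0.05, adjusted p = 0.0156; 0.05 with a term for 2 clusters of the score), with 9.18 in HS578T and 4.57 in EVSAT. SEMA4B, SEMA4C and SEMA4G were called on neither score; SEMA4C stood at 10.69 in DU4475, 1.04 above the next unit.

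In classes 5 to 7, SEMA5A, SEMA6A, SEMA6C and SEMA7A lost their calls without the Hs lines and SEMA6D kept its call. SEMA5A, with thrombospondin repeats, was at or under background in 27 units and reached 11.93 in HS578T, 11.03 in BT20 and 9.94 to 10.87 in the Hs lines. Its luminal slope of -0.52 ± 0.16 (adjusted p = 0.00919) was -0.29 without the Hs lines (adjusted p = 0.236). SEMA7A, the GPI-anchored semaphorin, was highest in HS579MG (7.82), HS605T (7.56) and HS739T (6.61), and its luminal slope of -0.09 ± 0.03 (adjusted p = 0.0192) was near 0 without those lines (-0.02, adjusted p = 0.717). SEMA6C had a luminal slope of -0.20 ± 0.06 (adjusted p = 0.00698), and -0.16 without the Hs lines (adjusted p = 0.074). SEMA6D was high in few units, 9.32 in HCC38, 9.29 in HS362T and 9.04 in MDAMB175VII, and had a mesenchymal slope of 0.29 ± 0.09 (adjusted p = 0.00603), and 0.27 without the Hs lines (adjusted p = 0.0345). SEMA6A, a transmembrane ligand of A-class plexins, was highest in CAL51 (11.44) and T47D (10.86); its mesenchymal slope of -0.31 ± 0.12 (adjusted p = 0.0317) was -0.26 without the Hs lines (adjusted p = 0.16), and its 5 probe sets did not all follow each other (lowest r 0.05). SEMA5B was near background except in HCC70 (8.88), HCC1187 (8.62) and DU4475 (7.11), and SEMA6B ran from 3.40 in MT3 to 10.61 in DU4475.

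The plexins had a median absolute luminal slope of 0.14, beside 0.32 for the 11 Eph receptors tested. PLXNB1, the receptor of SEMA4D, was above the array median in 49 units, between 5.45 in MDAMB231 and 9.36 in MDAMB175VII, with slopes of 0.24 ± 0.05 (luminal, adjusted p = 5.65e-05) and -0.19 ± 0.03 (mesenchymal, adjusted p = 1.63e-05). PLXNB2 was high in nearly all units (median 9.03) but was at 3.76 in the MB157_MDAMB157 set and 4.99 in UACC893. The luminal score of UACC893 was 1.78 and that of the MB157_MDAMB157 set -2.61. The luminal slope of PLXNB2, 0.20 ± 0.08 (adjusted p = 0.0488), was 0.15 without the MB157_MDAMB157 set (adjusted p = 0.0876). PLXNA1 stayed between 7.43 in MT3 and 9.99 in HS578T, with slopes of -0.14 ± 0.04 (luminal, adjusted p = 0.00548; without the Hs lines -0.10, adjusted p = 0.124) and 0.13 ± 0.03 (mesenchymal, adjusted p = 0.000502). PLXNA2 reached 11.91 in DU4475, 1.69 above MCF102A, and had a median of 7.25 and a luminal slope of -0.31 ± 0.10 (adjusted p = 0.017). PLXNA4 was at or under background in 44 units and stood at 8.82 in COLO824. Its 3 probe sets did not all follow each other closely (lowest r 0.39). PLXNA4 was also at 6.85 to 6.92 in 3 of the Hs lines. Its luminal slope of -0.14 ± 0.05 (adjusted p = 0.0178) was -0.07 without the Hs lines (adjusted p = 0.331). PLXNC1, the receptor of SEMA7A, was at or under background in 40 units, with 9.85 in HS362T and 8.47 in DU4475, and its luminal slope was -0.28 ± 0.08 (adjusted p = 0.00424), and -0.15 without HS362T, DU4475 and MB157_MDAMB157, the units of the widest arrays (adjusted p = 0.0547). PLXNA3, PLXNB3 and PLXND1 were called in no fit. The second probe set of PLXNA3 did not follow the first (r 0.07), and that of PLXNA1 gave an r of 0.50.

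Both neuropilins, which bind class 3 semaphorins and VEGF, were lower in units with a high luminal score. NRP1 was at 11.72 to 11.92 in the 4 Hs lines and at 11.32 in MDAMB231, had a median of 9.48 and was lowest in T47D (2.96), CAMA1 (3.12), MFM223 (3.37) and HCC1569 (3.67). Its luminal slope was -0.70 ± 0.14 (adjusted p = 9.75e-05) and its mesenchymal slope 0.55 ± 0.10 (adjusted p = 3.19e-05). Without the Hs lines the luminal slope was -0.64 (adjusted p = 0.00353) and the mesenchymal slope 0.51 (adjusted p = 0.00141). NRP2 had a lower median, 5.71, and was at or under background in 24 units. It was highest in COLO824 (10.04), HS605T (9.79), HCC1569 (9.72), the MDAMB435 set (9.65) and DU4475 (9.64), and HCC1569 and COLO824 (NRP1 3.92) combined a low NRP1 with a high NRP2. NRP2 had a luminal slope of -0.62 ± 0.08 (adjusted p = 6.73e-08), and -0.54 without the Hs lines (adjusted p = 3.72e-05). Its mesenchymal slope was 0.36 ± 0.08 (adjusted p = 0.000161), and turned to -0.06 with the luminal score in the same fit.

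When both scores entered 1 fit, 2 of these genes were higher and 2 lower with the luminal score, beside 2.69% and 1.48% of all detected genes, and 1 was higher and 4 lower with the mesenchymal score, beside 3.45% and 3.70% of all. On the luminal score NRP2 (-0.69 ± 0.15, adjusted p = 0.00374), EPHB1 (-0.64 ± 0.19, adjusted p = 0.0445), SEMA4A (0.64 ± 0.19, adjusted p = 0.0355) and SEMA3C (0.62 ± 0.16, adjusted p = 0.014) were called. On the mesenchymal score EPHA1 (-0.37 ± 0.09, adjusted p = 0.00444), EFNA3 (-0.32 ± 0.09, adjusted p = 0.0211), SEMA4D (-0.44 ± 0.13, adjusted p = 0.025), SEMA4C (-0.22 ± 0.06, adjusted p = 0.0243) and SEMA3C (0.57 ± 0.12, adjusted p = 0.00156) were called. The luminal call of SEMA3C and the mesenchymal call of SEMA4C were not made with either score alone. SEMA3C had positive slopes on both scores in that fit, and a slope of 0.00 on the luminal score alone. This fit was chosen after the data were seen.

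Ligands and their receptors were set side by side for 17 known pairs, as a description across the 50 units, which share the same arrays for both genes. The lowest correlation was that of SEMA3F with NRP2 (r -0.57, rho -0.60); both were above the array median in 26 units and SEMA3F alone in 24. SEMA4D with PLXNB1 had the highest (r 0.46, rho 0.37), followed by SEMA3A with NRP1 (r 0.36). EFNA1 with EPHA2 gave r -0.32, and both were above the array median in 44 units. For EFNB2 with EPHB4, r was 0.21, and 7 units had EPHB4 alone. SEMA3E with PLXND1 gave r -0.05, with both genes above the array median in 27 units and PLXND1 alone in 23. Over all 1225 pairs of the 50 genes, 19 had an r of at least 0.6, which is 1.55% beside 0.231% of all pairs of detected genes, and 7 had an r of -0.6 or lower, 0.571% beside 0.151%. The most negative was EFNA3 with NRP1 (r -0.70, rho -0.75).

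Related lines did not always share the levels of these genes. In the MDAMB435 set, NRP1 was at 10.84 in MDAMB435S and 3.05 in NM2C5, EFNB2 at 7.90 in MDAMB435S and 2.63 in M4A4, and SEMA6B at 10.83 in MDAMB435S and 6.03 in NM2C5. In the MB157_MDAMB157 set, SEMA3A was at 9.81 in MDAMB157 and 3.53 in MB157, and EPHA3 at 10.42 and EPHA4 at 8.90 in MDAMB157 were at 4.55 and 3.40 in MB157. Over all genes, MDAMB157 was nearer to HS578T than to MB157, while the other 13 of 14 lines in sets were nearest to a line of their own set. In the VP229_VP267 set SEMA3A was at 8.33 in VP267 and 3.05 in VP229, and SEMA5A at 11.39 in VP229 and 7.47 in VP267. Between 10 and 25 of the 50 genes spanned over 1 log2 unit within a set, beside 9.13% to 36.4% of all detected genes in the same sets, and the SD within sets had a median of 0.84 over the 50 genes.

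**Figure D5:**
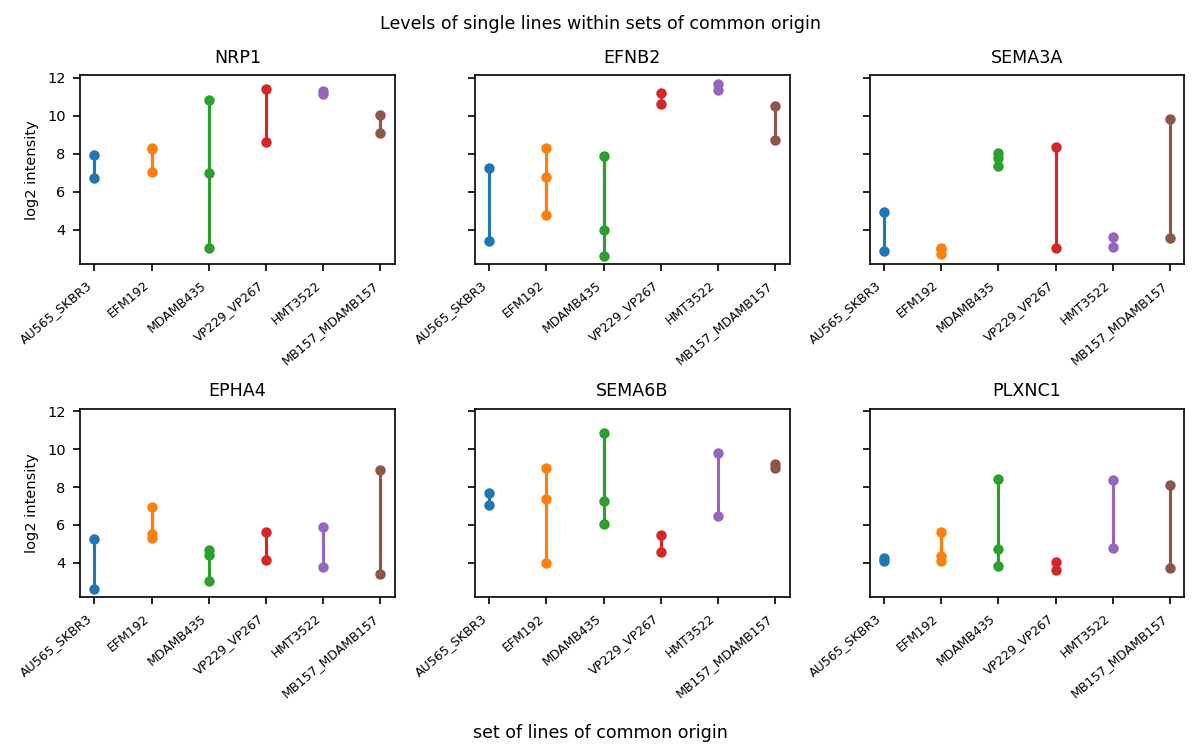
Points give the log2 intensity of single lines in the 6 sets of common origin (x axis) for NRP1, EFNB2, SEMA3A, EPHA4, SEMA6B and PLXNC1, joined by a bar within a set. NRP1 spans 7.79 log2 units within the MDAMB435 set, and the HMT3522 lines differ by less.

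Genes that act with these receptors and ligands were taken from 3 lists. Of 16 tested adaptors of Eph and ephrin signalling, 4 were higher and 3 lower with the luminal score, beside 20% and 14.8% of all detected genes. VAV3, an exchange factor that Eph receptors recruit, had a slope of 0.73 ± 0.11 (adjusted p = 1.29e-06) and a highest level of 11.41 in CAMA1, while FYN, a kinase of the SRC family, had -0.70 ± 0.11 (adjusted p = 1.27e-06) and was highest in HS362T at 11.73. Of 15 tested plexin and neuropilin effectors, 1 was higher and 5 lower with the luminal score: RND1, a GTPase that binds plexins, had 0.64 ± 0.07 (adjusted p = 6.61e-10), while DPYSL2, a CRMP protein in the SEMA3A pathway, had -0.52 ± 0.07 (adjusted p = 8.52e-08). RND3, a related GTPase, had -0.30 ± 0.06 (adjusted p = 4.77e-05). Of 11 tested co-receptors and membrane partners, 1 was higher (ERBB2, 0.45 ± 0.07, adjusted p = 3.77e-06) and 4 lower, among them ITGB1 (-0.10 ± 0.02, adjusted p = 1.34e-05) and MET, a partner of B-class plexins (-0.47 ± 0.12, adjusted p = 0.00216). With the mesenchymal score the counts were 4 higher and 1 lower for the co-receptors, 3 and 4 for the adaptors and 6 and 2 for the effectors, beside 15.4% higher and 21% lower of all.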

How the data were processed

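Each line was measured with 1 custom Affymetrix array. The authors deposited log2 intensities from RMA in Affymetrix Power Tools, per the submitters' processing notes, which give no versions. Quantile normalization in RMA gives arrays a near-common distribution, so the values are relative within an array. A gene was represented by its probe set naming 1 gene with the highest mean; the annotation of 52377 probe sets named 1 gene for 35184 and several for 374. The table's columns matched the 58 lines, which were grouped by textbook knowledge of origin into 50 units. Slopes were fitted with limma 3.58.1 (lmFit, eBayes with trend and robust, Benjamini-Hochberg over 14651 detected genes, 2-sided) in R 4.3.3, with the cluster of the score as a factor where mclust 6.1.1 found 2 components (over 10 BIC units, Ashman D over 2, at least 3 units each), which held for the basal score only. P-values measure the spread between units. The fits were also run on simulated data with independent genes, to some of which slopes were added. That run cannot show how the fits behave where genes are correlated. The members, the lists and the rules were chosen with earlier results of these data known. Members were named with their levels, and slopes were given for called members; of each partner list at most 3 called genes a direction, and of pairs the most extreme and neighbouring ones. Alternatives were averaged probe sets, exclusion of those with a cross-hybridisation mark, repeated quantile normalization, no or a stricter filter, all 58 lines as units, lines left out, array quality as a term, the cluster term and eBayes settings. Promoter windows were taken from a RefSeq table on GRCh38.p14. The 58 arrays limit the precision; signal near background limits low genes.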

Additional observations from a re-analysis of the deposited data

How the results depend on the processing

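Of the 57 slopes called on the luminal or mesenchymal score, 25 were called in every alternative that tested them, leaving aside those added after the data were seen: 19 on the luminal score, among them EPHA1, EFNA1, EFNA3, SEMA4A, NRP1 and NRP2, and 6 on the mesenchymal score (EFNA1, EFNA3, EPHA1, PLXNA1, SEMA3G and SEMA4D). EPHA10, among the 19, was not tested with averaged probe sets, where it was not detected. Without the 4 Hs lines 42 of 57 were called. With all 58 lines as units the mesenchymal counts were 3 higher and 5 lower (3.25% and 3.65% of all genes), because the rule for 2 clusters was then met (BIC gain 10.9) and a cluster term entered; without that term, an alternative added after the data were seen, they were 14 and 16. With no cluster term 3 members were higher with the basal score (2.53% of all genes). Under alternatives chosen after the data were seen, a cluster term gave 4 higher and 1 lower on the luminal score (5.53% and 4.10% of all genes) and 2 higher and 7 lower on the mesenchymal score (3.49% and 3.81%), and both scores in 1 fit gave 2 and 2 on the luminal score (2.69% and 1.48%) and 1 and 4 on the mesenchymal score (3.45% and 3.70%). The slope of SEMA3A on the mesenchymal score changed sign with 58 lines and the cluster term that then entered (-0.054, adjusted p = 0.914). Over 58 lines without that term, 28 of 29 mesenchymal slopes stayed called and 0 changed sign. With the cluster term over 50 units, slopes changed sign for SEMA4F on the luminal score (0.052, adjusted p = 0.814) and EPHA2 on the mesenchymal score (-0.035, adjusted p = 0.924). With both scores in 1 fit, the slope of NRP2 on the mesenchymal score changed sign (-0.065, adjusted p = 0.789). The cause of these changes was not tested. PLXNB2 and SEMA3C lost their calls under several settings. An SD of at least 1.5 left 26 of 37 members. No probe set of these genes carries a cross-hybridisation mark, so leaving out marked probe sets could not change their levels, and 57 of 57 slopes stayed called. The values were already quantile normalized, and repeating that step also kept 57 of 57. No paired analysis was made, since the labels give no treatment or pairing and lines of common origin were averaged to 1 unit. Without the 3 widest arrays 50 of 57 were called. Each line has 1 array, and genes at background in most units are limited by their signal.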

Other observations

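DU4475 stood at the edge of the range for many of these genes, but its share over all detected genes was not counted. It was the lowest unit for EFNA3, EFNA4, EFNA5, EFNB1, SEMA3C, SEMA4A and EPHB4 and the highest for EFNA2, EFNB2, EPHB1, SEMA4C, SEMA6B and PLXNA2. Its luminal score was -2.17 and its mesenchymal score -3.81, and its basal score was 2.96. It had NRP1 at 10.94 and NRP2 at 9.64, and SEMA3C at 4.33 where the median unit had 10.85. Its relative log expression had an interquartile range of 0.73, near the upper end of the range of 0.52 to 0.78 over units, and whether this moves with its extremes was not tested.

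The lines OCUBF and OCUBM, which are not known here to share an origin, had an r of 0.76 over genes and were kept apart. Each was the nearest line of the other. Within averaged sets, r was 0.41 for MB157 with MDAMB157, 0.47 for VP229 with VP267 and 0.82 for AU565 with SKBR3. With OCUBF and OCUBM as 1 unit, an alternative added after the data were seen, 55 of 57 slopes stayed called. PLXNB2 and SEMA3C lost their calls. OCUBF and OCUBM were both high in SEMA3E (10.53 and 10.59). EPHA3 was at 9.96 in OCUBF and 3.06 in OCUBM, and EPHA7 at 7.90 in OCUBF and 5.46 in OCUBM.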
